A study of Mus musculus with 48 samples.

Results

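The 8 genes described here encode the cyclins that drive the cell division cycle: CCNA2, CCNB1, CCNB2, CCND1, CCND2, CCND3, CCNE1 and CCNE2, spelled in capitals as on the array. They were taken by gene symbol, with no measured value used, and they hold 14 of the 24613 probes and 8 of the 18991 symbols of the array. The mRNA was measured in 3T3-L1 cells, a clonal mouse fibroblast line that turns into adipocytes when it is treated with hormones. The question was which genes depend on PPARγ, the nuclear receptor that directs this differentiation. Before differentiation the cells were transfected with 50 nM of a pool of siRNAs against PPARγ (PPARγ KD) or with a pool of siRNAs that has no target (control siRNA), so the knockdown precedes every day measured, and every group received a transfected siRNA. At confluence, on day −2, the cells received dexamethasone (0.25 µM) and IBMX (0.5 mM) over 48 hours. On day 0 these were replaced by 5 µg/ml insulin and 1 µM of the PPARγ ligand rosiglitazone for another 48 hours, also in the KD cells. Each siRNA was sampled on day −2 and on days 0, 1, 2, 3, 4, 5 and 6, with 3 biological replicates on each day, which makes 16 groups and 48 arrays. The line is a single clone, and each siRNA is a pool, so neither cells nor siRNA sequences vary between the replicates.

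Cyclins are the regulatory subunits of the cyclin-dependent kinases. The D-type cyclins (CCND1, CCND2 and CCND3) respond to mitogens and start the phosphorylation of the retinoblastoma protein, the E-type cyclins (CCNE1 and CCNE2) act with CDK2 at the start of DNA replication, CCNA2 acts through S phase and beyond, and the B-type cyclins (CCNB1 and CCNB2) drive mitosis with CDK1, which the array names CDC2A. Confluent 3T3-L1 cells are growth arrested, and after the hormones are given they divide again for a short time, in what is called mitotic clonal expansion, before they become adipocytes.

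Signals are given as log2 of the background-corrected and scaled bead intensity, and effects as log2 differences with the SE of the fit. A difference was called where limma gave a Bonferroni adjusted p of at most 0.05 over all 24613 probes. A probe was above background on an array where its detection p was under 0.01, and this held for 33.4% to 40.4% of the probes of an array. The arrays of replicate 3 stood apart, with at most 35.4% of probes above background against at least 36.8% in replicates 1 and 2, so each difference was also computed within each replicate number. The PPARG probe was lower in the KD in 24 of 24 pairs of arrays, by 1.93 to 2.63 on the log2 scale on the different days. Of the 11 probes for adipocyte markers, 10 were called lower in the KD over all days and none higher, and of the 14 probes for preadipocyte and fibroblast markers, 8 were called higher and none lower. The summed signal of the adipocyte markers was 106170 to 116728 on the control arrays of day 2 and 13576.6 to 13815.6 on the KD arrays, and that of the fibroblast markers 71462.9 to 79416.5 and 103806 to 111941. None of the 6 endothelial or 6 epithelial marker probes was above background on any array. Of the 13 macrophage marker probes, 2 were above background on some arrays and 1 was called higher in the KD over all days, with sums of 240.985 to 371.479 on the control arrays and 374.378 to 562.11 on the KD arrays of day 2. The part of the marker genes in the cyclin values was not tested. In these bulk samples fewer dividing cells and less cyclin mRNA in each cell cannot be told apart.

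The probes of the cyclins differed in what they could show. The probes for CCNB1 (4590433 and 4780372), CCND1 (460524, 770309, 6980398 and 3120576), CCND2 (5340167) and CCNE1 (110064), and probe 380528 for CCND3, were above background on 48 of 48 arrays. The CCNB2 probe 6510528 and probe 6620608 for CCNE2 were above background on 0 of 48 arrays, so their mRNA was not measured here. Probe 3120537 for CCNE2 was above background on 12 arrays, and 11 of these were arrays of days 1 and 2. The CCNA2 probe 5290075 and probe 730500 for CCND3 were above background on all 32 arrays of replicates 1 and 2 and on none of the 16 arrays of replicate 3. Where a gene has several probes the brightest is given, and the others are set beside it. Levels of different probes are not comparable, and only changes are compared between genes.

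In the RefSeq annotation of GRCm38.p6 the genes lie at chr3:36564865-36573038 (Ccna2), chr13:100778739-100786486 (Ccnb1), chr9:70407689-70421554 (Ccnb2), chr7:144929931-144939831 (Ccnd1), chr6:127125162-127152188 (Ccnd2), chr17:47505051-47599689 (Ccnd3), chr7:38097984-38107490 (Ccne1) and chr4:11190433-11204779 (Ccne2). The deposited arrays name no genome build. RefSeq promoter windows, which run from 250 bases before to 50 bases after a start site, matched 4 of the 8 genes with 5 windows. The windows of Ccnb1 (chr13:100786437-100786736, minus strand) and Ccne1 (chr7:38107441-38107740, minus strand) are shown because these genes had the most alike courses of the cyclins described below. Capitals mark matches to CCAAT, the core of the box bound by NF-Y, a factor known from cell cycle promoters.
Ccnb1: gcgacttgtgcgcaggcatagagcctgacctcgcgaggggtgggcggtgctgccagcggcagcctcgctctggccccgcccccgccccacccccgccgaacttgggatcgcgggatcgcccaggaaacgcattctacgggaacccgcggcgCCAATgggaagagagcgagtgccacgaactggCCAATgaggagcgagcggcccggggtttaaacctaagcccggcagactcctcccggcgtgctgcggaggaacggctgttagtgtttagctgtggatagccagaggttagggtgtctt
Ccne1: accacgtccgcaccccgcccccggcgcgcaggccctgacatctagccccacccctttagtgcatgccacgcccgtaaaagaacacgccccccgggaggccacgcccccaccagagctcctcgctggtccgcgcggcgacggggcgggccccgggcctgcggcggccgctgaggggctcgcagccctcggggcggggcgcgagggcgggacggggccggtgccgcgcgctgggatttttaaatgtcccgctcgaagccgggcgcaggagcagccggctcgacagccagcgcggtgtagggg
Both strands were searched for CCAAT, for TTTGAA, a form of the cell cycle homology region, and for the E2F words TTTCCCGC and TTTGGCGC. The Ccnb1 window held CCAAT at bases −99 and −67 from the start site. The Ccnb2 window (chr9:70421505-70421804, minus strand) held CCAAT at bases −87, −54 and −21 and TTTGAA at bases −167 and 5. The Ccnd3 window at chr17:47593217-47593516 held CCAAT at base −108, and the other Ccnd3 window and the Ccne1 window held none of the words. Of all 32851 windows, 37.4% held CCAAT, 17.9% TTTGAA, 1.07% TTTCCCGC and 0.514% TTTGGCGC. A match is a description of the letters and not of a bound site.

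Under control siRNA CCND1, CCNE1, CCNE2, CCNA2 and CCNB1 rose on day 1, and their courses then parted. CCND1 and CCND2 had fallen while the cells were in dexamethasone and IBMX, and CCND1 fell again on day 2 and came back on day 3. CCNB1, CCNE1 and CCNE2 stayed high on days 1 and 2 and fell on day 3. Of the 14 probes, 10 changed over the days by limma's F test under control siRNA, where 23.5% of all probes did, and 9 changed under PPARγ KD, where 16.5% did. The 10 probes were both for CCNB1, all 4 for CCND1, and the brightest for CCND2, CCND3, CCNE1 and CCNE2. CCND3 was called under control siRNA (adjusted p = 0.00452) and not under PPARγ KD (adjusted p = 0.472), and the difference between these courses was not tested.

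**Figure D1:**
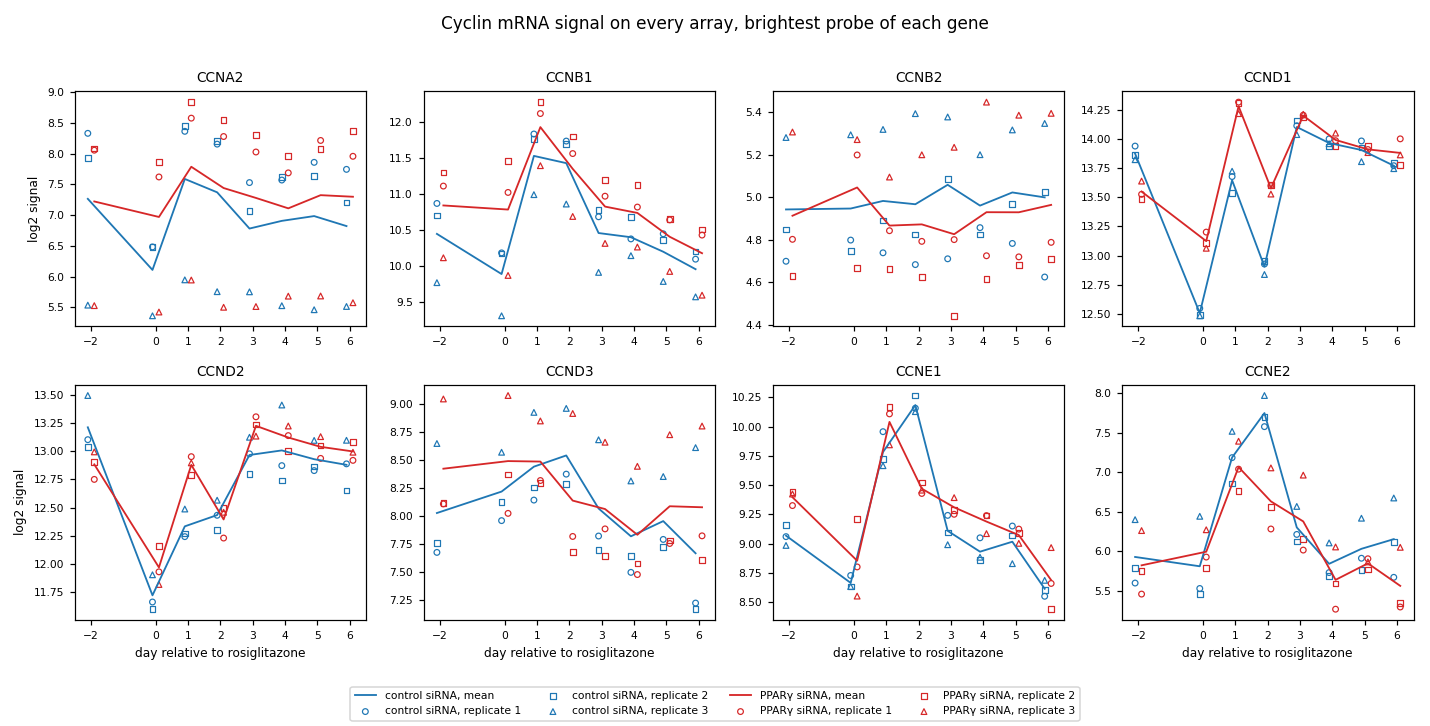
Log2 signal of the brightest probe of each cyclin gene on every array against the day relative to rosiglitazone. Symbols are the 3 replicates and lines are the means of control siRNA (blue) and PPARγ siRNA (red), each panel has its own y axis, and the CCNB2 panel and the replicate 3 points of CCNA2 are below background. CCND1 under control siRNA dropped from a mean of 13.87 on day −2 to 12.51 on day 0, against 13.12 on day 0 under PPARγ siRNA.

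CCND1, the cyclin that links mitogens to the cycle, had the smallest SE for a single day among the brightest probes above background (0.07). In the control cells probe 460524 read 13.94, 13.86 and 13.82 in replicates 1, 2 and 3 on day −2. On day 0 it read 12.55, 12.49 and 12.49. Every day 0 array was therefore lower than every day −2 array, by 1.36 ± 0.07 on the log2 scale or 2.57-fold (adjusted p = 2.46e-17). On day 1 the control arrays gave 13.68, 13.54 and 13.72, followed by 12.93, 12.95 and 12.84 on day 2. CCND1 thus rose from day 0 to day 1 by 1.14 ± 0.07 (adjusted p = 1.13e-14) and fell again from day 1 to day 2, by 0.74 ± 0.07 (adjusted p = 7.11e-09). Day 3 brought 14.11, 14.16 and 14.04. That was a rise of 1.19 ± 0.07 from day 2 (adjusted p = 2.16e-15), and from day 3 to day 6 no step between neighbouring days was called. The other CCND1 probes gave the same sequence of called steps, with differences of −1.51, −1.45 and −1.42 from day −2 to day 0 for probes 770309, 6980398 and 3120576.

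CCND2, which has the same role, shared the first fall. Its control values were 13.10, 13.04 and 13.49 on day −2 and 11.66, 11.60 and 11.90 on day 0. The groups did not overlap, and the difference was −1.49 ± 0.12 (adjusted p = 6.32e-11). Unlike CCND1, CCND2 had no called step under control siRNA after day 0. It was still called below day −2 on day 1 (−0.88 ± 0.12, adjusted p = 0.000103) and day 2 (−0.78 ± 0.12, adjusted p = 0.00147). On days 3 to 6 its difference from day −2 lay between −0.33 and −0.20 and was not called. CCND3 moved within a narrower range, between condition means of 7.66 and 8.54 under control siRNA, and no step between neighbouring days was called for either of its probes.

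The cyclins of DNA replication and mitosis stayed up on day 2, when CCND1 was down. CCNE1 under control siRNA read 8.73, 8.63 and 8.63 on day 0. It then read 9.96, 9.72 and 9.67 on day 1, with 10.16, 10.27 and 10.13 on day 2. Its rise from day 0 to day 1 was 1.12 ± 0.12 (adjusted p = 2.51e-07). On day 3 it was back at 9.24, 9.10 and 8.99, a fall of 1.07 ± 0.12 from day 2 (adjusted p = 7.28e-07). The CCNE2 probe 3120537 was above background in the control cells on the arrays of days 1 and 2 alone. Because it was not above background on any control array of day 0 or day 3, only bounds can be given. It was at least 1.63-fold higher on day 1 than on day 0, at least 2.40-fold higher on day 2 than on day 0 and at least 2.34-fold higher on day 2 than on day 3. The limma tests of the first and last comparison used the values below background as they were read (adjusted p = 1.1e-07 and 2.81e-08). The bounds themselves were not tested.

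CCNB1, the mitotic cyclin, read 10.18, 10.18 and 9.31 on day 0 and 11.84, 11.77 and 10.99 on day 1 in the control cells. Replicate 3 lay about as far below the others on both days, and the rise was 1.65, 1.59 and 1.68 within the replicates. The fitted difference was 1.64 ± 0.12, or 3.12-fold (adjusted p = 3.75e-11), and the other CCNB1 probe gave 1.74 ± 0.12. CCNB1 fell by 0.97 ± 0.12 from day 2 to day 3 (adjusted p = 6.39e-05). CCNA2 read 6.48 and 6.48 in replicates 1 and 2 on day 0 and 8.36 and 8.46 on day 1, while replicate 3 was below background on both days. Its difference was 1.48 ± 0.23 over the 3 replicates (adjusted p = 0.00320) and 1.93 without replicate 3, and the call was lost without replicate 1 or without replicate 2.

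By the count of probes, 5 of 14 were called lower on day 0 than on day −2 in the control cells, the 4 for CCND1 and that for CCND2, against 5.04% of all probes called lower. From day 0 to day 1, 9 of 14 were called higher, against 4.89% of all probes. From day 1 to day 2 the 4 CCND1 probes were called lower, against 1.71% of all probes. From day 2 to day 3 the 4 CCND1 probes were called higher, against 4.53% of all probes, and the CCNB1 probes, CCNE1 and CCNE2 were called lower, against 3.92%. Under PPARγ KD, 3 of 14 probes were called lower on day 0 than on day −2 (CCND1 probes 460524 and 3120576, and CCND2), against 4.02% of all probes, and 9 of 14 were called higher on day 1 than on day 0, against 4.7%. From day 1 to day 2 in the KD, 3 CCND1 probes were called lower, against 0.865% of all probes, and from day 2 to day 3 the same 3 CCND1 probes and CCND2 were called higher, against 0.902%. For the brightest CCND1 probe and for CCNE1 no called step between neighbouring days in the control cells was lost without a replicate. The fall of CCNB1 to day 3 was lost without replicate 1 for both probes and without replicate 2 for probe 4780372. Among the values relative to day −2 given above, those of CCND2 were lost on day 1 without replicate 1 and on day 2 without any replicate. In the KD the fall of CCND1 to day 0 was lost without any replicate for probe 460524, and the fall of CCND2 to day 0 and both its rises without replicate 1.

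**Figure D2:**
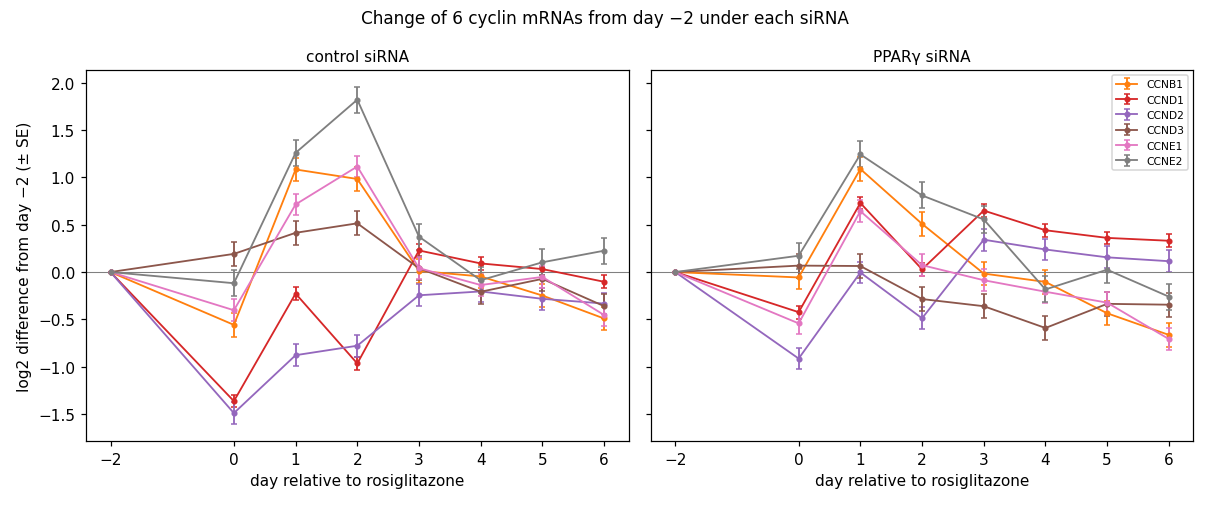
Log2 difference from day −2 (± SE of the fit) of the brightest probe of 6 cyclin genes on each day, in control cells (left) and PPARγ siRNA cells (right). CCNB2 and CCNA2 are left out because they were below background on all arrays or on those of replicate 3, and the CCNE2 probe was above background on 11 of the 12 arrays of days 1 and 2 and on 1 other array. CCND1 stood at −1.36 and −0.97 on days 0 and 2 in the control cells and at −0.42 and 0.03 in the PPARγ siRNA cells, while CCNE1 was highest on day 2 in the control cells and on day 1 in the PPARγ siRNA cells.

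PPARγ siRNA left CCND1 and CCNB1 higher than in the control cells when all days were averaged. Both CCNB1 probes and all 4 CCND1 probes were called higher, which is 6 of 14 probes, against 6.37% of all probes called higher. None of the 14 was called lower, against 6.74% of all probes. The siRNA differences averaged over days 0 to 2, and the comparisons of days 1 and 2 with day −2, were not recomputed under the alternatives. Of the 27 other called values of the siRNA difference, or of its change between days, none changed sign under any alternative run. The call was lost for 22 of them without scaling between arrays and for 15 with no replicate block. The differences stayed at 0.758 to 1.17 times their size without scaling, and with no block they were the same by construction. The CCNB1 probes were higher by 0.34 ± 0.04 and 0.36 ± 0.04 (adjusted p = 6.4e-05 and 7.58e-06). The CCND1 differences were 0.23 ± 0.02 for probe 460524, 0.36 ± 0.03 for 770309, 0.29 ± 0.04 for 6980398 and 0.37 ± 0.04 for 3120576. The call of CCNB1 probe 4590433 was lost without replicate 1 (0.36) and without replicate 2 (0.27), that of 4780372 without replicate 2 (0.31), and that of CCND1 probe 6980398 without replicate 1 (0.28) and without replicate 2 (0.19). CCND2 (0.13 ± 0.04), CCND3 (0.11 ± 0.04), CCNE1 (0.08 ± 0.04) and CCNE2 (−0.26 ± 0.05) did not pass the test. CCNA2 differed by 0.33 ± 0.08 without passing it, and by 0.49 without replicate 3, where it passed (adjusted p = 0.0137, and the difference lay between 0.15 and 0.49 over the alternatives tried).

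**Figure D3:**
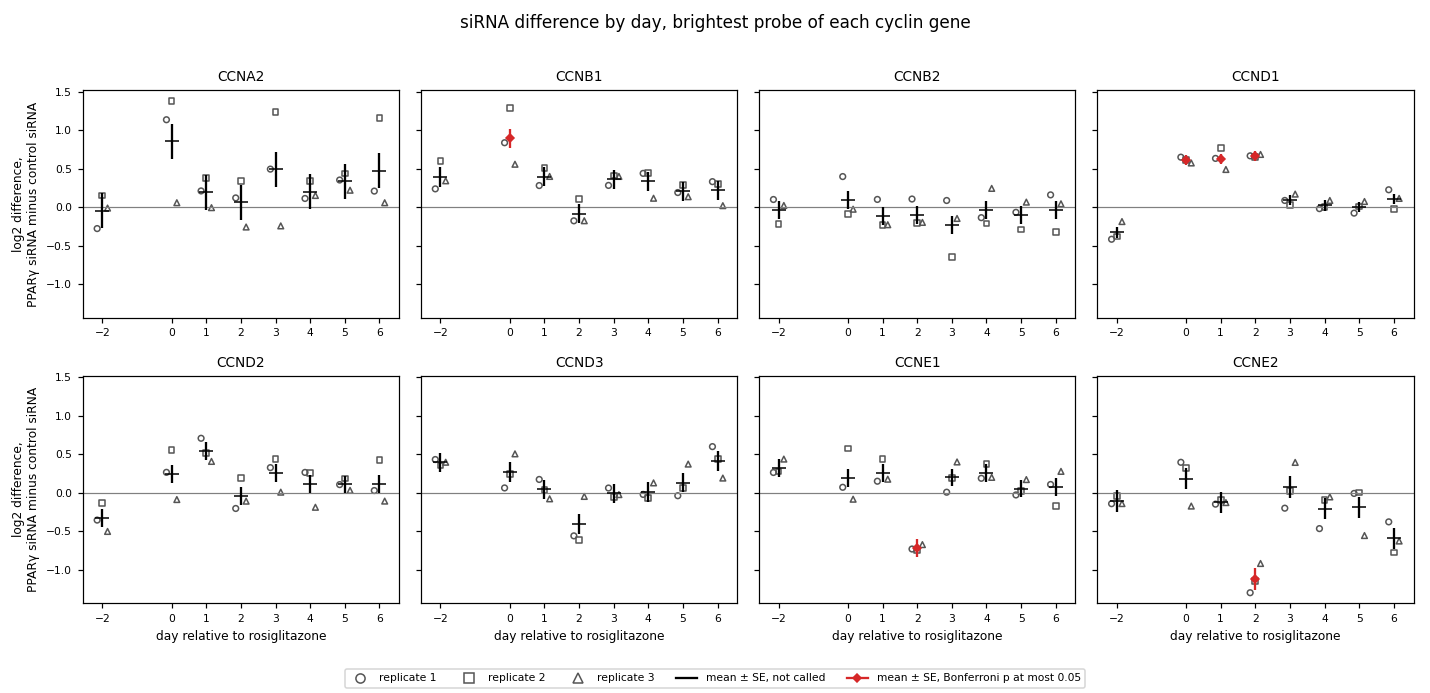
Log2 difference between PPARγ siRNA and control siRNA on each day for the brightest probe of each cyclin gene, with 1 grey symbol for each replicate, black dashes for the mean ± SE where the difference was not called and red diamonds where the Bonferroni adjusted p was at most 0.05. CCND1 lay near 0.6 on days 0, 1 and 2 and between 0.01 and 0.11 on days 3 to 6, CCNB1 was highest on day 0 at 0.90, and CCNE1 and CCNE2 were lowest on day 2 at −0.71 and −1.12.

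The siRNA difference of CCND1 was limited in time. On day −2 the KD values of probe 460524 were 13.52, 13.48 and 13.64, all below the control values given above. The difference of −0.32 ± 0.07 did not pass the test (adjusted p = 0.566), but it passed limma's test with Benjamini-Hochberg adjustment (adjusted p = 0.00162). By Bonferroni, 0 of the 14 cyclin probes were called on that day, against 0.861% of all probes in either direction. On day 0 the KD values were 13.20, 13.11 and 13.06, all above the control values. The difference was 0.62 ± 0.07, or 1.53-fold (adjusted p = 1.06e-06), with 0.65, 0.62 and 0.58 in the replicates. On day 1 the KD arrays gave 14.31, 14.31 and 14.22, higher by 0.63 ± 0.07 (adjusted p = 5.06e-07). On day 2 they gave 13.60, 13.61 and 13.53, higher by 0.67 ± 0.07 (adjusted p = 1.08e-07). The groups overlapped on none of these days. On day 3 the KD values were still all above those of the control cells, but by little, and from day 4 on the groups overlapped, with differences of 0.10, 0.03, 0.01 and 0.11 (each ± 0.07) on days 3, 4, 5 and 6. The day 0 call of this probe was lost without replicate 1 and the day 1 call without replicate 2, with differences of 0.60 and 0.56, while the day 2 call held without any replicate.

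The fall of CCND1 in dexamethasone and IBMX was smaller under PPARγ KD. From day −2 to day 0 probe 460524 fell by 0.42 ± 0.07 in the KD (adjusted p = 0.00554), against 1.36 in the control cells. The difference between the falls was 0.94 ± 0.09 (adjusted p = 1.37e-07), with 1.07, 0.99 and 0.76 in the replicates, and for probe 770309 it was 1.00 ± 0.14 (adjusted p = 0.000330). The first call was lost without replicate 1 (0.88) and the second without replicate 1 (0.98) or replicate 3 (1.09). These were the 2 of 14 cyclin probes for which the siRNA difference was called higher on day 0 than on day −2, against 0.378% of all probes. For CCND1 probes 6980398 and 3120576 the difference between the falls was 0.89 and 0.71 and was not called. On day 1 the siRNA difference was called higher than on day −2 for all 4 CCND1 probes, against 0.613% of all probes, and on day 2 again for all 4, against 3.34%. The step from day 0 to day 1 in CCND1 was 1.14 in the control cells and 1.15 in the KD, and that from day 1 to day 2 was −0.74 and −0.70. From day 2 to day 3, by contrast, CCND1 rose by 1.19 in the control cells and by 0.62 ± 0.07 in the KD, and whether these rises differ was not tested by itself. The KD values on day 3 were 14.20, 14.18 and 14.21, beside 14.11, 14.16 and 14.04 in the control cells.

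The averages of the early and late days gave the same contrast. Over days 0 to 2 CCND1 was higher in the KD by 0.64 ± 0.04 for probe 460524 (adjusted p = 2.59e-14), and over days 4 to 6 the difference was 0.05 ± 0.04 and was not called. The late difference minus the early one was −0.59 ± 0.05 (adjusted p = 1.17e-08). It was −0.74 ± 0.08, −0.68 ± 0.10 and −0.61 ± 0.09 for probes 770309, 6980398 and 3120576, and negative in each replicate for all 4 probes. These 4 were the only cyclin probes called in this comparison, out of 14, against 3.63% of all probes in either direction. For probe 460524 the call held under 13 of 13 alternatives, with values from −0.64 to −0.55. For probe 770309 it held under 11, and it was lost without replicate 1 (−0.72) and without scaling between arrays. For probes 6980398 and 3120576 it held under 8, and it was lost without replicate 1 (−0.70 and −0.63) and without replicate 2 (−0.61 and −0.45). For both it was also lost without scaling between arrays, with no replicate block and with the replicate block by day.

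**Figure D4:**
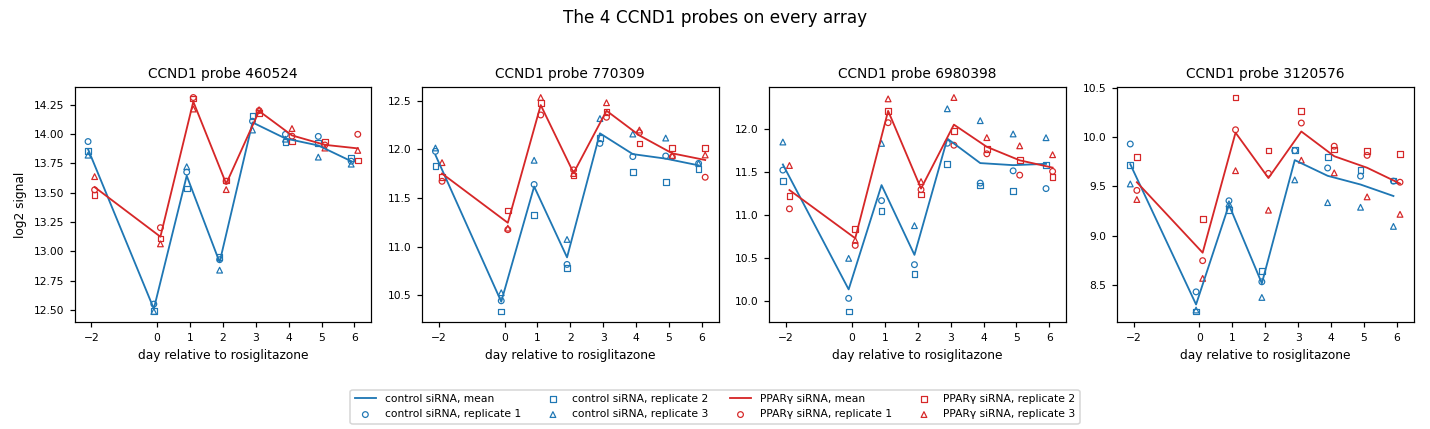
Log2 signal of the 4 CCND1 probes on every array against the day relative to rosiglitazone, with symbols for the replicates and lines for the means of control siRNA (blue) and PPARγ siRNA (red), and with a y axis for each panel. In all 4 panels the mean under PPARγ siRNA is above that of control siRNA on days 0, 1 and 2, by 0.53 to 1.07, and the lines are within 0.29 of each other on days 3 to 6.

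The other CCND1 probes gave differences of the same direction on days 0 to 2, but not all of the same size. On day 0 the difference was 0.81 ± 0.10 for probe 770309 and was called, and it was 0.60 ± 0.12 and 0.53 ± 0.11 for probes 6980398 and 3120576 and was not. On day 2 it ranged from 0.67 for probe 460524 to 1.07 ± 0.11 for probe 3120576, the dimmest, whose KD values were 9.63, 9.86 and 9.26 beside 8.53, 8.64 and 8.37. Replicate 3 had the smallest of the replicate differences for probe 6980398 on days 0, 1 and 2, at 0.21, 0.52 and 0.51. On day 1, 4 of 14 cyclin probes were called higher in the KD, against 1.42% of all probes, and on day 2, 4 of 14, against 4.74%. In both cases these were the 4 CCND1 probes. Without replicate 1 the calls of 6980398 on both days, of 3120576 on day 1 and of 770309 on day 2 were lost, and without replicate 2 those of 6980398 on both days and of 3120576 on day 1, with differences that stayed between 0.53 and 0.84. On day 1, 0 of 14 cyclin probes were called lower, against 1.49% of all probes.

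CCND2 followed CCND1 on day 1 in direction but did not pass the test. Its KD values on day 1 were 12.95, 12.79 and 12.90, all above the control values of 12.24, 12.27 and 12.49. The difference was 0.55 ± 0.12 (adjusted p = 0.795). On day 2 the KD values were 12.23, 12.50 and 12.46 and the control values 12.43, 12.30 and 12.57, and the groups overlapped. The fall of CCND2 from day −2 to day 0 was 0.91 ± 0.12 in the KD (adjusted p = 4.1e-05) and 1.49 in the control cells, and the difference between the falls, 0.58, did not pass the test. In the KD the rise of CCND2 from day 0 to day 1 (0.91 ± 0.12) and from day 2 to day 3 (0.83 ± 0.12) were both called, whereas those in the control cells (0.61 and 0.53) were not, and the difference between the rises was not tested. CCND3 differed on no day by the test. Its largest siRNA differences were −0.40 ± 0.13 on day 2 and 0.41 ± 0.13 on day 6, while its other probe, below background in replicate 3, differed by 0.12 ± 0.20 and 0.13 ± 0.20 on the same days.

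The E-type cyclins were lower in the KD on day 2. CCNE1 read 9.43, 9.52 and 9.46 in the KD, against 10.16, 10.27 and 10.13 in the control cells, with no overlap. The difference was −0.71 ± 0.12, or 1.64-fold (adjusted p = 0.00833), and it was −0.73, −0.74 and −0.67 within the replicates. CCNE2, by probe 3120537, read 6.28, 6.56 and 7.06 in the KD, where 2 of 3 arrays were above background, and 7.58, 7.70 and 7.97 in the control cells. It was lower by 1.12 ± 0.14, or 2.17-fold (adjusted p = 2.39e-05). As 1 KD array was below background the size is uncertain, and over the alternatives the difference lay between −1.22 and −0.70, the last without background correction. These were the 2 of 14 cyclin probes called lower on day 2, against 4.18% of all probes. The CCNE1 call was lost without any of the 3 replicates, with differences of −0.74 to −0.70, and the CCNE2 call without replicate 2, at −1.11. The median over all probes was itself −0.12 on day 2 under this scaling and 0.00 in size under quantile normalization, where both calls were kept.

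On day 1 the E-type cyclins had not differed in this way. CCNE1 read 10.11, 10.17 and 9.84 in the KD and 9.96, 9.72 and 9.67 in the control cells, a difference of 0.26 ± 0.12 that was not called. CCNE2 read 7.04, 6.77 and 7.39 in the KD and 7.19, 6.86 and 7.52 in the control cells, a difference of −0.12 ± 0.14. For both genes the groups overlapped. The change of the siRNA difference from day 1 to day 2, a comparison chosen after these values were seen, was −0.97 ± 0.16 for CCNE1 (adjusted p = 0.0174). That of CCNE2, with 1 KD array of day 2 below background, did not pass the test (adjusted p = 0.248), and its values lay between −1.10 and −0.61 over the alternatives. CCNE1 was the 1 of 14 cyclin probes called lower in it, against 0.926% of all probes, and the call was lost without any of the 3 replicates. Relative to day −2, where CCNE1 was higher in the KD by 0.33 ± 0.12 without passing the test, the siRNA difference on day 2 was −1.04 ± 0.16 (adjusted p = 0.00448). It was the 1 cyclin probe of 14 called lower in that comparison, against 2.63% of all probes. From day 1 to day 2 CCNE1 moved by 0.40 ± 0.12 in the control cells and by −0.57 ± 0.12 in the KD, and neither step was called.

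CCNB1 was higher in the KD on day 0, before rosiglitazone was given. Probe 4590433 read 11.02, 11.46 and 9.87 in the KD and 10.18, 10.18 and 9.31 in the control cells. The ranges overlapped through replicate 3, which lay lower in both groups. Within the replicates the differences were 0.84, 1.29 and 0.56, and the fitted difference was 0.90 ± 0.12, or 1.86-fold (adjusted p = 0.000396). The other CCNB1 probe gave 0.97 ± 0.12 (adjusted p = 3.22e-05), with 0.92, 1.34 and 0.64 in the replicates. Both calls were lost without replicate 1 and without replicate 2, where the difference lay between 0.70 and 0.99. With CCND1 probes 460524 and 770309 these were the 4 of 14 cyclin probes called higher on day 0, against 1.67% of all probes, and none was called lower, against 1.37%. On day −2 probe 4590433 already differed by 0.40 ± 0.12 and on day 1 again by 0.40, neither called, while on day 2 the difference was −0.08. Probe 4780372 differed by 0.33 ± 0.12 on day −2, which was not called. The siRNA difference on day 0 minus that on day −2 was 0.50 ± 0.18 for probe 4590433 and 0.63 ± 0.17 for probe 4780372. Neither change was called. On each of days 3 to 6 both probes were between 0.21 and 0.37 without being called.

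CCNA2, which works between the E-type and B-type cyclins, had values like CCNB1 in the replicates that measured it. On day 0 it read 7.62 and 7.87 in replicates 1 and 2 of the KD and 6.48 and 6.48 in those of the control cells, differences of 1.14 and 1.39. In replicate 3, below background in both groups, the values were 5.42 and 5.36. The fitted difference was 0.86 ± 0.23 over the 3 replicates and 1.26 without replicate 3, and neither passed the test. The first passed limma's test with Benjamini-Hochberg adjustment (adjusted p = 0.00798). From day −2 to day 0 CCNA2 fell by 1.65 in the control cells without replicate 3, which was called, and by 0.33 in the KD, which was not. The difference between these falls, 1.32 without replicate 3, did not pass the test.

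On no single day from day 3 on did a cyclin probe differ between the siRNAs by the test. The calls were 0 of 14 on day 3, against 2.76% of all probes in either direction, 0 of 14 on day 4, against 2.4%, 0 of 14 on day 5, against 3.24%, and 0 of 14 on day 6, against 3.88%. Without correction, 6, 3, 1 and 5 of the 14 probes had a limma p under 0.05 on days 3, 4, 5 and 6. After Benjamini-Hochberg adjustment CCND3 was higher on day 6 (0.41 ± 0.13), and 1 of the 14 probes was lower. The CCNE2 probe was below background on all 6 arrays of that day. Averaged over days 4 to 6, CCNB1 was higher by 0.26 ± 0.07 (probe 4590433) and 0.31 ± 0.07 (probe 4780372), which was not called. Both passed limma's test with Benjamini-Hochberg adjustment (adjusted p = 0.00687 and 0.000653). By that adjustment 2 of the 14 probes were higher and 1 lower. The late minus early values of CCNB1, −0.15 and −0.12, were not called.

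The partners of the cyclins were read from lists made with earlier results of these data known. Over all days 6.37% of all probes were called higher and 6.74% lower, and 1 called probe in a list of 10 to 30 is near such a share. Of the 10 probes for the partner kinases, 1 of 3 for CDK4 was called higher in the KD over all days (0.29 ± 0.03) and 1 of 4 for CDK2 lower (−0.17 ± 0.03), beside a median of −0.03 for the list and −0.03 for all probes. CDC2A, the partner of CCNB1, was called higher by 0.72 on day 0 for probe 1570411, the day on which CCNB1 was called. Over all days that probe had 0.18 ± 0.04 and was not called, and CDC2A probe 3800450 was above background on 0 arrays. CDK2, the partner of the E-type cyclins, had a difference of −0.54 on day 2, where they were called lower. The 3 CDK4 probes lay between −0.14 and 0.31 on days 0, 1 and 2, when CCND1 was higher, and none was called on these days. For the CDK4 probe called over all days the late difference minus the early one was 0.45 and was called, against −0.59 for CCND1. The other CDK4 probes had 0.24 and 0.03 and were not called. Whether the kinases follow their cyclins was not tested. Of the 18 probes for other cyclins, CCNF was called higher over all days (0.35 ± 0.05) and none lower, and the CCNF probe was above background on 9 arrays.

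The CDK inhibitors held 11 probes, of which 2 were called higher and 4 lower over all days, against 6.37% and 6.74% of all probes. CDKN2B, which binds CDK4 and its relative CDK6, was higher by 0.48 ± 0.03 over all days and by 1.37 on day 2. CDKN2C, of the same family, was lower, at −0.60 ± 0.04 and −0.49 ± 0.03 for its 2 probes, and CDKN1A, which inhibits the kinases of the E-type and A-type cyclins, was at −0.30 ± 0.03 and −0.23 ± 0.03. CDKN2D was higher by 0.24 ± 0.04. On day 2, 2 of the 11 probes were called higher, against 4.74% of all probes, and 4 lower, against 4.18%. Those called higher were CDKN2B and CDKN2A probe 4760047 (0.57). Those called lower were the CDKN2C probes (−0.97 and −0.69) and the CDKN1A probes (−0.91 and −0.73). Whether the inhibitors bear on the cyclin values was not tested.

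Of 19 probes for the retinoblastoma family and the E2F factors, RB1 was called lower (−0.63 ± 0.04) and RBL1 higher (0.28 ± 0.05). On day 2, 2 of the 19 were called lower, against 4.18% of all probes, and none higher. These were RB1 (−0.72) and E2F2 probe 5270609 (−1.16), which was above background on 6 arrays. Of 11 probes for the phosphatases and inhibitory kinases of the CDKs, 2 of 3 for CDC25C, which activates the mitotic kinase, were called higher (0.55 ± 0.06 and 0.41 ± 0.05), with 1.33 and 1.29 on day 0, and the other was above background on no array. PKMYT1, a kinase that inhibits CDK1, was called lower by 1 of its 2 probes (−1.10 ± 0.03), and the other, above background on 31 arrays, had −0.21 ± 0.06. CDC25A, which activates CDK2, had a called difference of −0.97 on day 2.

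Of 30 probes for factors of the cyclin ubiquitin ligases, 1 of 3 for CDC20, which directs the degradation of B-type cyclins, was called higher over all days (0.26 ± 0.04) and none lower. The other CDC20 probes had 0.18 ± 0.04 and 0.20 ± 0.05. Of 23 probes for activators of cyclin genes, FOXM1, an activator of CCNB1, was called higher (0.41 ± 0.05, and 0.92 on day 0). JUN, which activates CCND1, was called higher (0.24 ± 0.04), with −0.06, 0.69 and 0.83 on days 0, 1 and 2. Its day 0 value was not called, while CCND1 was called higher by 0.62 on that day. Whether any activator listed here bears on a cyclin value was not tested. MYC was called lower (−0.49 ± 0.05) by a probe above background on 16 arrays. That probe had −0.75, −0.12 and −1.65 on days 0, 1 and 2, and only the last was called. The other probes for FOXM1 and MYC were above background on no array. The medians over all days were −0.05 for the other cyclins, −0.08 for the inhibitors, −0.05 for the phosphatases and inhibitory kinases and 0.04 for the activators.

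The courses of the cyclins over the 16 group means fell together in part. Pearson's r was 0.92 between CCNB1 and CCNE1, 0.86 between CCND1 and CCND2 and 0.86 between CCNE1 and CCNE2, but 0.05 between CCND1 and CCNE1 and −0.43 between CCND1 and CCND3. These are descriptions over means that share arrays, scaling and time. Among 9206 probes of other genes above background on at least 24 arrays, the most alike to CCNB1 were RRM1, a subunit of ribonucleotide reductase (r = 0.98), FIGNL1 (0.98) and AURKA, a mitotic kinase (0.98). For CCND1 they were RASAL2 (0.96), ERCC1 (0.95) and EPHX1 (0.95), and for CCND2 FMNL3, RGS4 and a RIKEN cDNA (each 0.95). For CCNE1 they were NXT1 (0.98), FPGS (0.97) and RANGAP1 (0.97), for CCNE2 BAZ1A, 1700029F09RIK and SRM (each 0.96), for CCNA2 CEP55 (0.97), PLK4, a kinase of centriole duplication (0.95), and E130306D19RIK (0.95), and for CCND3 CHORDC1 (0.93), GMPS (0.91) and MRPL49 (0.90). None is given for CCNB2, which was below background. Within replicate 3, where the CCNA2 probe was below background, its likeness was 0.64 for CEP55, 0.66 for PLK4 and 0.76 for E130306D19RIK, and that of CCND3 was also lower there, with 0.51 for CHORDC1, 0.58 for GMPS and 0.65 for MRPL49.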

How the data were processed

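Of the 48 arrays, 24 were of each siRNA, and samples were grouped by their titles. The authors deposited the mean bead intensity of each probe from BeadStudio, not normalized, and a detection value that is a fraction, 1 minus the detection p, with a median of 35 beads for each probe. The members, gene lists, promoter words and comparisons were chosen with earlier results of these data known. On the deposited intensities the background was removed by limma 3.58.1 (R 4.3.3), normexp with the detection p and an offset of 16. Arrays were then brought to 1 level on probes of stable rank (a shift under 0.05 of all ranks, percentiles 50 to 90), each by its median ratio to the average array. This follows the rank-invariant normalization of the study's methods but is not the same routine, and the factors were 0.730 to 1.58. Log2 values were fitted with lmFit and eBayes, with 1 coefficient for each of the 16 groups and 1 block for each replicate number, since the methods removed a batch effect. The replicate number was kept as a block: over 10567 probes above background on at least 3 arrays, deviations from the group means correlated by 0.544 to 0.914 between arrays of the same number and day, and by −0.889 to 0.854 between different numbers, the lowest involving replicate 3. This sets replicate 3 apart but does not separate numbers 1 and 2, since control replicate 1 correlated more with KD replicate 2 than with KD replicate 1 on all 8 days. The p-values measure the spread left among the 3 replicates of a group after the shifts between replicate numbers are taken out. This spread was estimated for each probe over all 16 groups and moderated over all probes by eBayes. All tests were adjusted by Bonferroni over 24613 probes, as in the methods. Every cyclin probe was named, and of the lists, the probes called over all days were named. The values on single days, the late minus early values of CDK4, and CDC25A, CDC2A, CDKN2A and E2F2 were chosen after they were seen. The siRNA difference on day 2 minus day 1, and the fits of CCNA2 and CCND3 without replicate 3, were added after seeing the data. For a bound on a fold, the dim probe was set on each array to the lowest signal above background, or kept where it was higher. Promoter windows and gene positions are RefSeq's for GRCm38.p6. Plots were drawn with matplotlib 3.10.9. The fit was tested on simulated data. The alternatives tried were other scalings, background settings, filters, blocks, adjustments and fits, and leaving out each replicate number. Precision is limited by the signal over background and by how many arrays there are.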

Additional observations from a re-analysis of the deposited data

Results flagged for a closer look

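The siRNA difference changed between days for 5 cyclin probes by limma's interaction contrasts, with Bonferroni adjustment. The difference on days 4 to 6 minus that on days 0 to 2 was −0.59 for CCND1 probe 460524, −0.74 for 770309, −0.68 for 6980398 and −0.61 for 3120576. The difference on day 0 minus that on day −2 was 0.94 for CCND1 probe 460524 and 1.00 for 770309. The difference on day 1 minus that on day −2 was 0.96 for CCND1 probe 460524, 1.03 for 770309, 1.16 for 6980398 and 0.91 for 3120576. On day 2 minus day −2 it was 0.99, 1.06, 1.07 and 1.25 for the same probes in that order, and −1.04 for CCNE1. For CCNE1 the difference on day 2 minus that on day 1 was −0.97, in a comparison chosen after seeing the data. The comparisons with day −2 share its arrays, so they are not independent of each other. Those of days 1 and 2 were not recomputed under the alternatives. Groups of 3 arrays were too small to test single arrays as outliers.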

How the results depend on the processing

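Counts of called cyclin probes are given for the siRNA difference over all days (6), for the siRNA difference summed over the single days (14), for the courses under control siRNA (10) and PPARγ siRNA (9), and for late minus early days (4). Without scaling between arrays the first, second and last became 2, 2 and 1. With no replicate block they became 2, 6 and 2, and the course under PPARγ siRNA gave 5. With the replicate block by day, late minus early gave 2, while the differences were unchanged by construction. Benjamini-Hochberg adjustment gave 10 over all days and 23 on single days, and fitting each day on its own 6 arrays gave 3. Without 1 replicate number the counts were 3 to 7 over all days, 5 to 13 on single days, 9 to 11 and 6 to 9 for the courses, and 1 to 4 for late minus early. The other alternatives (quantile normalization, no background correction, an offset of 50, a filter on dim probes and eBayes with trend and robust) kept each count within 1.5 times. No called value changed sign under any alternative run. Of 98 called values, 57 were lost without scaling, 50 with no replicate block and 45, 30 and 18 without replicates 1, 2 and 3, whereas 97 held under quantile normalization. The cause of these losses was not tested, beyond fewer arrays in the last 3. The BeadChip as a random block was not run, because the chip of an array is not analysed here. Signal over background limits CCNB2, CCNE2 and, in replicate 3, CCNA2.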
